A study of Saccharomyces cerevisiae with 24 samples.

Results

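Budding yeast has few introns, and many of them lie outside the ribosomal protein (RP) genes that dominate its spliced transcripts. The genes described here are the 104 intron-containing genes, of 284 in the deposited long-read table, that are not RP genes, occur in none of the gene-specific SMIT (Single Molecule Intron Tracking) files of the series, and had 20 or more alignments over 4 nanopore libraries. A fixed exclusion list of 7 genes applied as well, and this left 144 genes before the alignment minimum. Of those, 37 had fewer than 20 alignments and 3 had no coordinates in the reference gene table. Just inside the minimum lay BET4 with 20 alignments and YBR062C with 21, and just outside it lay DCN1 with 19, MMS2 and ATG38 with 17 and COX5B with 16.

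The 4 libraries were nascent RNA taken from chromatin of log-phase cells in rich YPAD medium at 30 C, treated with rapamycin, which was present at 1 ug per ml for 10 min. Nab2-AA (2 libraries) is MATalpha and carries NAB2-FRB::HIS, so that rapamycin tethers the tagged Nab2 to an anchor and withdraws it from the nucleus. Control-AA (2 libraries) is MATa and lacks the FRB tag. Both strains carry tor1-1, the fpr1Δ::loxP-LEU2-LoxP deletion and the anchor, RPL13A-2xFKBP12::LoxP-TRP1-LoxP, an RP gene fused to the drug-binding domain. Mating type differs along with the tag, so the 2 cannot be told apart. DNA was digested, poly(A) RNA was depleted with oligo(dT) beads, and ribosomal RNA was removed with an exonuclease. An adapter was ligated to the 3' ends before strand-switching reverse transcription, so a read shows the intron, the start and the 3' end of a single molecule. NAB2 has no intron and was not measured here, so the strain labels could not be checked against it.

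Distinct alignments numbered 32107 and 11485 in the Nab2-AA libraries, against 10042 and 14264 in the Control-AA libraries, and no read name was shared between libraries. The members took 3983 and 1458 of these in Nab2-AA, against 1066 and 1421 in Control-AA. Whether the 2 libraries of a strain came from separate cultures is not stated in the labels, so p-values cover the library spread alone, possibly a technical one. Reads were amplified by PCR without molecular identifiers, and intervals cover counting error only. With 2 libraries a strain, the smallest two-sided p of an exact permutation test is 0.333.

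Nuclear introns are removed by the spliceosome, largely while RNA polymerase II is still transcribing. At the end of a gene the transcript is cleaved and polyadenylated, after which the polymerase normally stops. Where cleavage does not take place, the polymerase can run on into the next gene, and an intron gene that lies downstream can then be copied as the tail of its neighbour's transcript. Nab2 binds poly(A) tails in the nucleus and is known for roles in tail length control, RNA stability and export.

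The members fell into 4 kinds. There were 83 nuclear genes other than HAC1, with 20 to 261 alignments each and a median of 52. HAC1 stood alone with 1337 alignments. Another 10 members were subtelomeric genes, mostly helicase-like genes of the Y' repeats, whose alignments mostly had a mapping quality under 10 and therefore cannot be assigned to 1 copy. This kind was set by mapping quality alone (over 50% of alignments under 10). Other subtelomeric genes, such as YPR202W and YHL050C, stayed among the 83 nuclear genes. The last 10 were mitochondrial, of which 7 lie inside COX1 or COB and share their reads. The 97 members with reads of their own entered the fits per gene. Alignment gaps showed 87 introns in 74 members. In the 83 nuclear genes these were 65 introns in 62 genes, 56 to 739 nt long with a median of 93 nt, and 49 of them began within 60 nt of the coding start. No genome sequence was used here, so no splice site or promoter sequence is given.

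Chimeric reads, which overlap the member and a same-strand gene upstream of it (50 nt or more in each), made up a large part of the nuclear members' reads and a larger one in Nab2-AA. The share was 23.9% and 27.6% in the Nab2-AA libraries, against 12.4% and 13.7% in the Control-AA libraries. The groups did not overlap, and the means of 25.7% ± 2.66 and 13.1% ± 0.86 (SD, n = 2 each) differed by 12.7 percentage points (exact permutation p = 0.333). The same share was 1.97% and 2.60% in Nab2-AA against 0.755% and 0.754% in Control-AA over the 44 non-RP genes that have SMIT data. Over the 89 RP genes it was 2.39% and 2.68% in Nab2-AA, against 0.466% and 0.599% in Control-AA. This difference was 11.2 percentage points larger in the nuclear members than in the non-RP genes with SMIT data and 10.7 larger than in the RP genes, each with the smallest p this design allows (exact permutation p = 0.333). As a ratio of the strain means the order was the reverse, at 1.97-fold in the nuclear members, 3.03-fold in the non-RP genes with SMIT data and 4.75-fold in the RP genes. Members needed 20 alignments over all libraries, and 60 of the 97 had fewer than 20 in Control-AA, against 11 in Nab2-AA. Some therefore entered through chimeric Nab2-AA reads, while the other sets had no such minimum, so these differences describe the chosen genes. With the 7 members called higher in alignments (below) left out, the mean share was 22.9% in Nab2-AA, against 12.3% in Control-AA. These 7 hold only 6 of the 60 members, so this does not remove that limit.

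**Figure D1:**
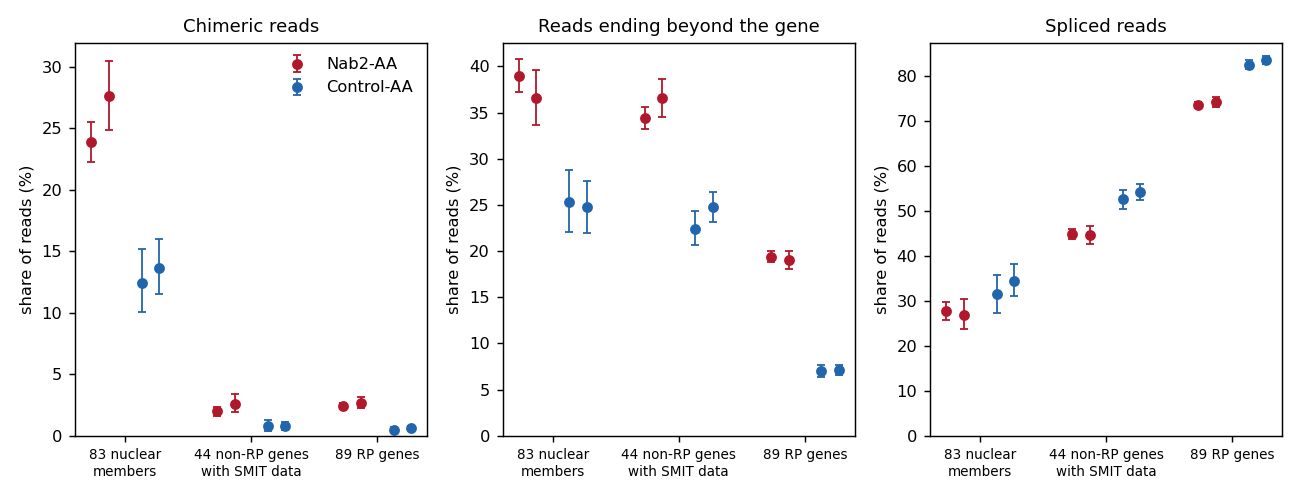
Share of reads (%) that were chimeric, that ended beyond the gene, or that were spliced, in each library of Nab2-AA (red) and Control-AA (blue), for the 83 nuclear members and 2 other gene sets. Each point is 1 library with its exact 95% binomial interval, and the chimeric share of the members lies above that of the other sets in every library.

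The chimeric reads were concentrated in a minority of members. Of 1158 chimeric reads in nuclear members, 887 belonged to 19 genes in which they exceeded 50% of the reads over all libraries, while 36 nuclear members had none. These 19 were named after their values were seen. REC102, a gene for meiotic double-strand breaks, had 120 of its 124 reads in chimeras with NMA1, an enzyme gene of NAD synthesis. DMC1, the meiotic recombinase, had 64 of 65 in chimeras with PDA1, a subunit of pyruvate dehydrogenase. MEI4, also needed for meiotic breaks, had 22 of 24 with ACA1, and the uncharacterised YKR005C had 67 of 69 with the mitochondrial ribosomal protein gene MRPL13. All 72 reads of YBR090C were chimeric, 56 of them with TIM12. In these 5 genes Control-AA reads were few but mostly chimeric too, with 11 of 12 for REC102 and 9 of 9 for DMC1. Also among the 19 were subtelomeric genes whose upstream partner lies in the same chromosome end. They were YEL076C-A (84 of 100 reads, with YEL075C), YLR464W (78 of 86, with YLR462W) and YHL050C (49 of 70, with YHL049C). Whether their reads run from a separate gene or belong to a single transcript over both was not tested.

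In other members the split between strains was wider. YCL012C had 44 chimeric reads of 50 in Nab2-AA, against 2 of 8 in Control-AA, with GBP2, an mRNA export factor gene, as the upstream partner. YJR112W-A, downstream of NNF1, had 35 of 47 in Nab2-AA, against 4 of 11 in Control-AA. GIM5, a prefoldin subunit gene downstream of YML096W, had 25 of 39 in Nab2-AA, against 3 of 11 in Control-AA. ERV1, a sulfhydryl oxidase of mitochondria, had close shares in the strains, with 21 of 29 in Nab2-AA, against 15 of 20 in Control-AA. PAL2, also named after its values were seen, had 7 and 7 of them with SFB3 in the Nab2-AA libraries, of 12 and 11 reads. It had 0 and 1 in the Control-AA libraries, of 10 and 7 reads. LSB3, a gene of actin patches, had 17 of 54 and 5 of 18 in the Nab2-AA libraries, against 0 of 12 and 6 of 19 in the Control-AA libraries, which overlap.

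**Figure D2:**
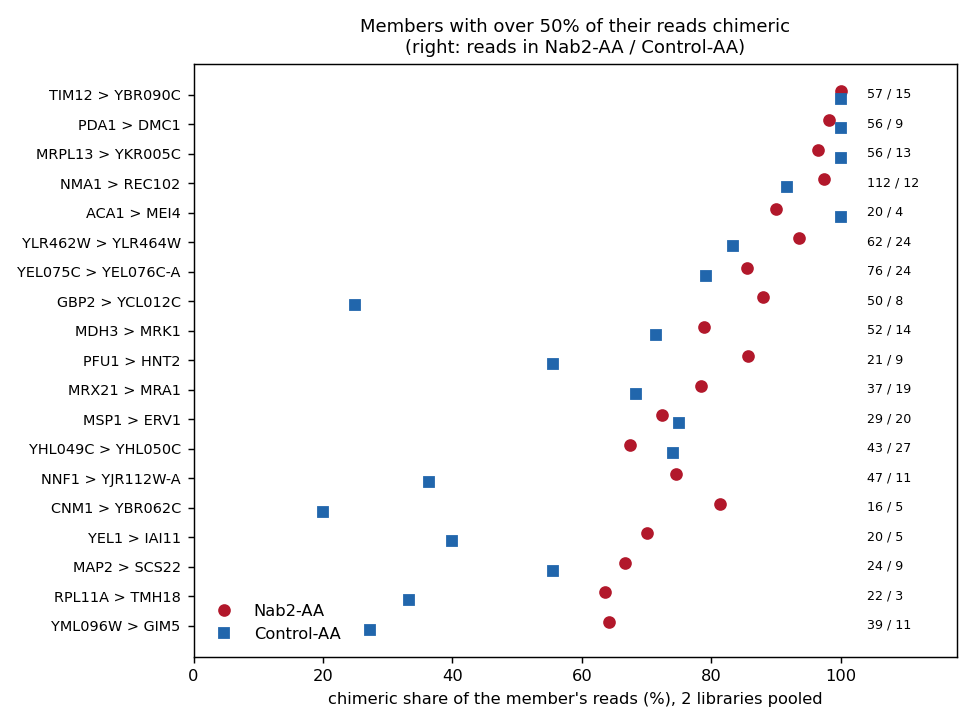
Chimeric share of reads (%), the 2 libraries of a strain pooled, in the 19 nuclear members with over 50% chimeric reads, labelled as upstream gene and member. Nab2-AA is the circle and Control-AA the square, and the numbers at the right are the reads behind them, which range from 3 to 27 in Control-AA.

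Gene by gene, no member's chimeric share reached significance. edgeR's quasi-likelihood test on the interaction of strain with read class called 2 of 252 genes higher in Nab2-AA (0.794%) and 0 lower (0%), and none was among the 97 members tested. Of these, 3 had an unadjusted p under 0.05, all higher in Nab2-AA, and DESeq2 called 0. The lowest edgeR adjusted p was 0.0900, for PAL2 (log2 odds ratio 4.40, SE 1.43), and YCL012C followed with 0.115 (4.36, SE 1.47). Among 61 nuclear members with 10 or more reads in each strain, the pooled share was higher in Nab2-AA in 25, lower in 6 and equal in 30, of which 29 had no chimeric read. The limit from the way members were chosen (above) applies to these counts too.

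Reads that ended more than 250 nt past the coding end were also more frequent in Nab2-AA. They made up 39.0% and 36.6% of nuclear member reads in the Nab2-AA libraries, against 25.3% and 24.7% in the Control-AA libraries, without overlap (exact permutation p = 0.333). The difference of 12.8 percentage points lay close to the 11.9 of the non-RP genes with SMIT data and the 12.2 of the RP genes. These differences were apart by 0.85 and 0.57 points, and an exact permutation test gave p = 1 in both cases. As ratios of the strain means they were 1.51-fold in the nuclear members, 1.51-fold in the non-RP genes with SMIT data and 2.73-fold in the RP genes. Of the 97 members 60 had fewer than 20 alignments in Control-AA, against 11 in Nab2-AA, and the other sets had no such minimum. Some members, such as DYN2, entered through Nab2-AA reads that ended beyond the gene, so these differences describe the chosen genes. The level differed from that of RP genes, where 19.4% and 19.04% of reads ended beyond the gene in Nab2-AA, against 6.97% and 7.09% in Control-AA. Coding ends were used because no 3' end annotation was given, so a gene with a long untranslated tail can enter this class without any readthrough.

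Of the 97 members, 0 passed edgeR's quasi-likelihood test for this class in either direction, where 38 of 252 genes (15.1%) were higher and 0 (0%) lower over the whole table. In place of 38 calls there were 23 without Nab2-AA replicate 1, 0 without Nab2-AA replicate 2, 7 without Control-AA replicate 1 and 0 without Control-AA replicate 2. DESeq2 called 0 members and gave 83 of them no adjusted p. Unadjusted, 8 members were higher and 1 lower at p under 0.05. Members had a median of 56 alignments and RP genes of 290, and 31 of the 38 called genes were RP genes. The median log2 odds ratio was 0.81 over the members and 1.27 over all genes. Among the 61 nuclear members with 10 or more reads in each strain, 45 were higher in Nab2-AA, 10 lower and 6 had none in either strain. Some of them became members through their Nab2-AA reads, so these counts describe the chosen genes.

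PFY1, which codes for the actin-binding protein profilin, came closest. Of its reads 66 of 103 and 23 of 40 ended beyond the gene in Nab2-AA, against 3 of 15 and 12 of 29 in Control-AA (log2 odds ratio 1.66, SE 0.51, edgeR adjusted p = 0.0594). VMA10, a stalk subunit of the vacuolar proton pump, had 30 of 51 and 7 of 9 in Nab2-AA, against 0 of 6 and 3 of 13 in Control-AA (3.03, SE 1.00, edgeR adjusted p = 0.0744). EPT1, an ethanolamine phosphotransferase gene, had 17 of 34 and 12 of 21 in Nab2-AA, against 2 of 11 and 5 of 16 in Control-AA. HRB1, an mRNA export factor gene, had 7 of 58 and 7 of 20 in Nab2-AA, against 0 of 14 and 1 of 42 in Control-AA. In each of these 4 genes both Nab2-AA libraries lay above both Control-AA libraries. YIP3, a gene of vesicle traffic, had 13 of 45 and 2 of 22 in Nab2-AA, against 1 of 18 and 0 of 22 in Control-AA. ERV41, also of vesicle traffic, had 13 of 40 and 5 of 14 in Nab2-AA, against 1 of 16 and 4 of 14 in Control-AA. Shares in the opposite direction were seen in APE2, an aminopeptidase gene, with 3 of 33 and 3 of 18 in Nab2-AA, against 3 of 13 and 4 of 16 in Control-AA. RAD14, a DNA repair gene, had 2 of 12 and 0 of 3 in Nab2-AA, against 4 of 6 and 3 of 4 in Control-AA.

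The number of alignments per gene was higher in Nab2-AA for 7 of the 97 members (7.22%) and lower for 0 (edgeR's quasi-likelihood test, Benjamini-Hochberg adjusted p under 0.05). Over all 252 genes 15 (5.95%) were higher and 17 (6.75%) lower, so the share of members called higher was near that of the whole table. Membership required 20 alignments over the 4 libraries together, and 6 of the 7 (as 60 of the 97) had fewer than 20 in Control-AA. These 6 became members through their Nab2-AA reads, so the count of 7 and the members' median below describe the chosen genes and support no general increase. Of the members, 1 was lower at an unadjusted p under 0.05. Without TMM scaling 23 were higher and 8 lower, with 11 members among the higher. The median log2 change was 0.26 over the members and 0.07 over all genes. DESeq2 called 0 members and gave no adjusted p for 94 of the 97. In these bulk samples more RNA per cell and more cells making it cannot be told apart.

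In 3 of the 7, most Nab2-AA reads were chimeric. REC102 had 81 and 31 alignments in Nab2-AA, against 6 and 6 in Control-AA, or 26.1 ± 1.25 and 5.09 ± 1.25 per 10000 alignments (SD, n = 2 each). The log2 change was 2.25 (SE 0.39, edgeR adjusted p = 2.88e-06), and 79 and 30 of the Nab2-AA reads were chimeric with NMA1. DMC1 had 40 and 16 in Nab2-AA, against 5 and 4 in Control-AA (log2 change 1.67, SE 0.51, edgeR adjusted p = 0.0183), with 39 and 16 of the Nab2-AA reads chimeric. YCL012C had 31 and 19 in Nab2-AA, against 4 and 4 in Control-AA (1.70, SE 0.54, edgeR adjusted p = 0.0209). Without chimeric reads its log2 change was -0.83 (edgeR adjusted p = 0.714), and REC102 and DMC1 no longer had the 10 reads needed for the fit. Of all 58 reads of YCL012C 46 were chimeric, so the value of -0.83 rests on few reads and shows no direction.

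In another 3, a majority of the Nab2-AA reads ended beyond the gene. DYN2, the dynein light chain gene, had 33 and 9 alignments in Nab2-AA, against 1 and 5 in Control-AA (log2 change 1.81, SE 0.61, edgeR adjusted p = 0.0282), and 31 and 7 of the Nab2-AA reads ended beyond the gene. NCB2, a subunit gene of the transcription regulator NC2, had 42 and 18 in Nab2-AA, against 7 and 6 in Control-AA (1.25, SE 0.45, edgeR adjusted p = 0.0496), with 35 and 15 of the Nab2-AA reads beyond. PFY1 had 103 and 40 in Nab2-AA, against 15 and 29 in Control-AA (0.75, SE 0.26, edgeR adjusted p = 0.0293). Counted on reads that ended within the gene, the log2 change was -0.085 for NCB2 (edgeR adjusted p = 0.958) and 0.12 for PFY1 (edgeR adjusted p = 0.957), and DYN2 had too few reads for the fit.

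COI1, a gene for a mitochondrial protein, had 30 and 12 alignments in Nab2-AA, against 4 and 1 in Control-AA (log2 change 2.08, SE 0.64, edgeR adjusted p = 0.0192), and none was chimeric. Of these 47 alignments 39 carried a read name that also aligned to the opposite strand, compared with 7.46% of all nuclear member reads. With such reads left out COI1 was under the minimum of 10 reads and had no value, so the strand of these reads is uncertain. CQD1, with 66 and 22 alignments in Nab2-AA against 13 and 10 in Control-AA, missed the threshold (log2 change 0.96, edgeR adjusted p = 0.0532). Leaving out Nab2-AA replicate 1 or 2, or Control-AA replicate 2, left 1, 1 and 2 members called, and REC102 was the 1 gene called in all 11 settings that gave it an adjusted p.

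**Figure D3:**
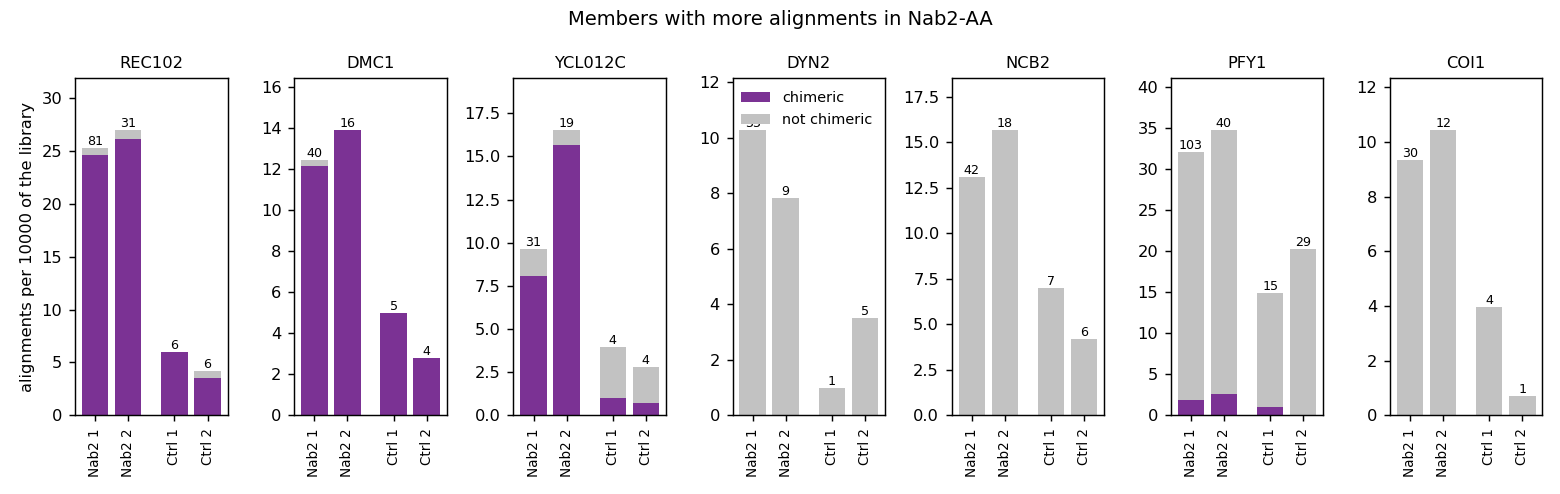
Alignments per 10000 distinct alignments of the library in the 7 members called higher in Nab2-AA, as bars per library split into chimeric and other reads, with the number of alignments above each bar. Axes differ between genes, and chimeric reads fill most of the bars for REC102, DMC1 and the Nab2-AA bars of YCL012C.

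Splicing of the nuclear members was low and slightly lower in Nab2-AA. Of reads that either lacked or fully kept the intron, 27.8% and 26.9% were spliced in the Nab2-AA libraries, against 31.4% and 34.5% in the Control-AA libraries. The difference was -5.61 percentage points (exact permutation p = 0.333), with means of 27.3% ± 0.59 and 33.0% ± 2.19 (SD, n = 2 each). It was -8.63 points in the non-RP genes with SMIT data, where 44.9% and 44.7% of Nab2-AA reads and 52.6% and 54.2% of Control-AA reads were spliced, and -9.22 points in the RP genes. All 3 differences had the smallest p the design allows, as did the comparison of the members' difference with each of the others. Among reads that ended within the gene and were not chimeric, the nuclear members stood at 37.3% and 36.0% in Nab2-AA, against 40.6% and 43.5% in Control-AA. That difference of -5.38 points was 4.10 points further below 0 than the -1.28 points of the RP genes, and 1.10 points nearer to 0 than the -6.48 points of the non-RP genes with SMIT data (exact permutation p = 0.333 for each). Introns were found from 3 or more matching reads over all libraries, and Nab2-AA gave most reads. Some passed through 1 strain alone, such as the first of DYN2 (13 of 34 spliced in Nab2-AA, 0 of 5 in Control-AA). KIN28 was the reverse, with 0 of 13 in Nab2-AA, against 3 of 11 in Control-AA. The direction of such introns was fixed in advance, so these differences describe the introns found.

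Splicing differed by read class. In Nab2-AA 21.5% and 22.5% of the non-chimeric reads that ended beyond the gene were spliced, against 10.4% and 16.5% in Control-AA. This is the opposite direction to reads that ended within the gene. In the non-RP genes with SMIT data the shares of such reads were 33.1% and 34.6% in Nab2-AA, against 39.3% and 40.1% in Control-AA. In the RP genes they were 27.7% and 29.1% in Nab2-AA, against 23.7% and 24.5% in Control-AA, the same direction as in the members. With YPR202W, the member with the most such reads, left out, the nuclear members' shares were 20.9% and 23.6% in Nab2-AA, against 10.0% and 18.8% in Control-AA. The limit from the way introns were found (above) applies to these shares too, and its part in their direction was not tested. Of chimeric reads 9.5% and 10.5% were spliced in Nab2-AA, against 4.35% and 0% in Control-AA, where 0 of 37 allows up to 8.11%. In the mostly chimeric members 13 of 141 chimeric reads and 16 of 43 other reads were spliced in Nab2-AA, against 1 of 32 and 8 of 23 in Control-AA, over 6 introns.

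No member intron reached significance in edgeR's quasi-likelihood test. Of 82 member introns tested 0 were called, where 13 of 235 introns (5.53%) of the whole table were lower in Nab2-AA, with 0 (0%) higher. Of the member introns 1 was higher and 2 lower at an unadjusted p under 0.05, and DESeq2 called 0, with no adjusted p for 79. With a library left out the whole table gave 1 to 8 calls in place of 13. Within the gene 0 of 65 were called, as were 0 of all 202 (0% in either direction), with 1 member lower at an unadjusted p under 0.05 and 0 called by DESeq2. The median log2 odds ratio was -0.28 over member introns and -0.49 over all introns. Of 49 nuclear member introns with 10 or more reads in each strain, 30 had a lower pooled share in Nab2-AA, 19 had a higher one, and the median difference was -4.98 percentage points.

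Of the nuclear member introns with 10 or more reads in each strain, the most spliced in Control-AA was that of TUB1, an alpha-tubulin gene (chromosome XIII, 99260 to 99375, 116 nt, sacCer3). It was spliced in 68.4% and 58.3% of reads in Nab2-AA, against 73.0% and 79.1% in Control-AA, and both Nab2-AA libraries lay below both Control-AA libraries. VMA10 (chromosome VIII, 187515 to 187676, 162 nt) had 16 of 51 and 2 of 8 spliced in Nab2-AA, against 5 of 5 and 7 of 13 in Control-AA (log2 odds ratio -2.20, SE 0.93, edgeR adjusted p = 0.149). Among its reads that ended within the gene the counts were 17 of 23 in Nab2-AA, against 12 of 15 in Control-AA. CPT1, a choline phosphotransferase gene, had 44.4% and 71.4% in Nab2-AA, against 41.7% and 68.0% in Control-AA, with more spread between replicates than between strains.

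PFY1 (chromosome XV, 552666 to 552874, 209 nt) had 31.0% and 42.5% of reads spliced in Nab2-AA, against 57.1% and 46.4% in Control-AA. Among reads that ended within the gene the share was 68.9% in Nab2-AA, against 67.9% in Control-AA. TFC3, which codes for the largest subunit of the RNA polymerase III factor TFIIIC, had 4 of 42 and 2 of 14 spliced in Nab2-AA, against 4 of 10 and 5 of 19 in Control-AA. PHO85, a cyclin-dependent kinase gene, had overlapping shares over all reads, with 27 of 60 and 10 of 20 in Nab2-AA, against 6 of 18 and 12 of 23 in Control-AA. Its reads that ended within the gene were spliced in 4 of 27 in Nab2-AA, against 12 of 21 in Control-AA (log2 odds ratio -2.86, SE 0.99, edgeR adjusted p = 0.799).

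Among the lowest Control-AA shares was that of POP8, a subunit of ribonuclease P, with 6 of 25 and 1 of 6 spliced in Nab2-AA, against 1 of 11 and 0 of 2 in Control-AA. HPC2, a subunit of the HIR nucleosome assembly complex, had 5 of 14 and 1 of 9 in Nab2-AA, against 0 of 5 and 1 of 7 in Control-AA. YPR202W, a subtelomeric gene with 8.43% of its alignments under mapping quality 10, had 23.1% and 15.7% in Nab2-AA, against 13.3% and 5.3% in Control-AA. HRB1 had 29.8% and 25.0% in Nab2-AA, against 23.1% and 16.7% in Control-AA. In YPR202W and HRB1 both Nab2-AA libraries lay above both Control-AA libraries, and neither gene passed the test.

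**Figure D4:**
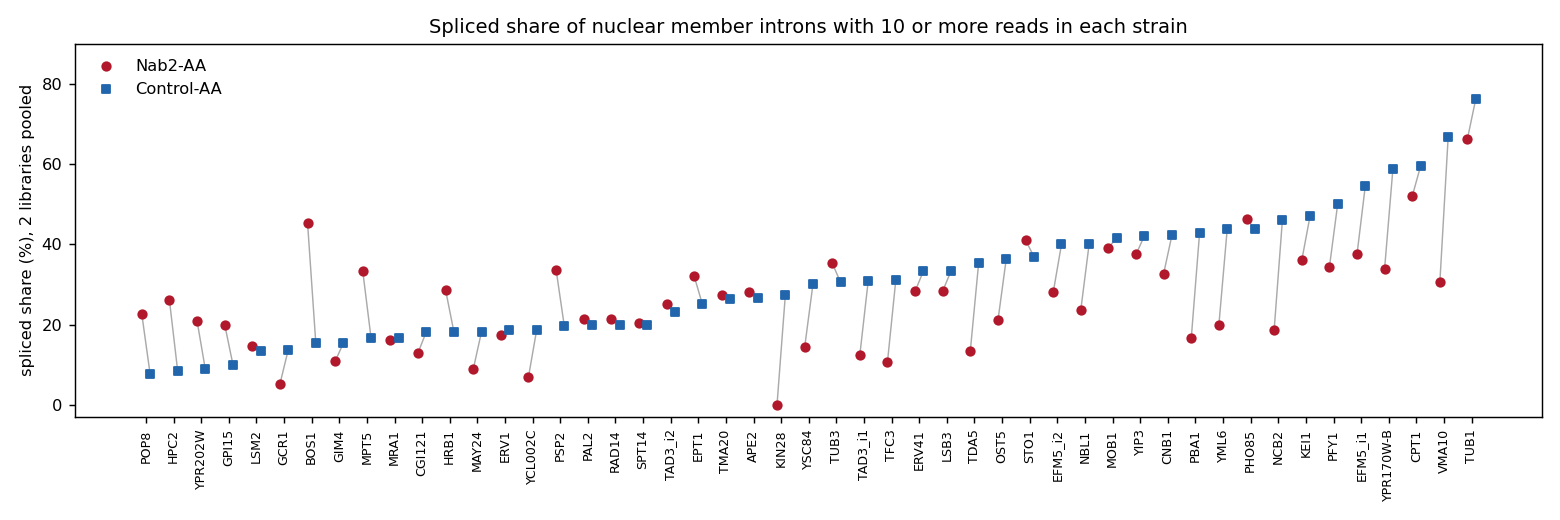
Spliced share of reads (%), the 2 libraries of a strain pooled, for the 49 nuclear member introns with 10 or more reads in each strain, in order of the Control-AA share. Nab2-AA is the circle at the left and Control-AA the square at the right of each pair, and in 30 pairs the Nab2-AA share is the lower.

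The 10 introns over 200 nt were spliced in 31.1% and 24.2% of reads in Nab2-AA, against 22.7% and 25.1% in Control-AA, and the groups overlapped. The 55 introns of 200 nt or less were spliced in 26.6% and 28.0% in Nab2-AA, against 34.5% and 38.5% in Control-AA, without overlap. Among reads that ended within the gene the shorter introns stood at 38.1% and 39.7% in Nab2-AA, against 46.2% and 50.6% in Control-AA. Among the same reads the longer introns stood at 35.5% and 29.4% in Nab2-AA, against 26.5% and 29.3% in Control-AA. The second libraries of the strains were nearly equal, at 32 of 109 reads in Nab2-AA and 48 of 164 in Control-AA. The division by length was chosen after the data were seen and carries no test. Across the 49 introns, length and Control-AA share had a Spearman coefficient of -0.09, and length and Nab2-AA share one of 0.14. The introns share libraries and these values are a description.

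Splicing was least frequent in reads that ended close to the intron. Of nuclear member reads whose 3' end lay up to 250 nt past it, 6.3% and 12.7% were spliced in Nab2-AA, against 12.5% and 16.3% in Control-AA. Between 250 and 500 nt 29.7% of reads and 13 of 65 reads were spliced in Nab2-AA, against 40.4% of reads and 30 of 75 reads in Control-AA. Between 500 and 1000 nt they were 27.4% and 31.8% in Nab2-AA, against 33.8% and 36.5% in Control-AA. From 1000 to 2000 nt they were 29.3% and 25.5% in Nab2-AA, against 28.4% and 33.1% in Control-AA. Past 2000 nt they were 34.7% and 37.3% in Nab2-AA, against 33.3% and 39.3% in Control-AA, and overlapped. Set against the non-RP genes with SMIT data, the members' Control-AA shares were higher between 250 and 500 nt, where those genes had 29.0% and 32.5%. At 1000 to 2000 nt the members stood below the non-RP genes with SMIT data, which had 49.7% and 49.6% spliced in Nab2-AA, against 58.6% and 58.9% in Control-AA.

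**Figure D5:**
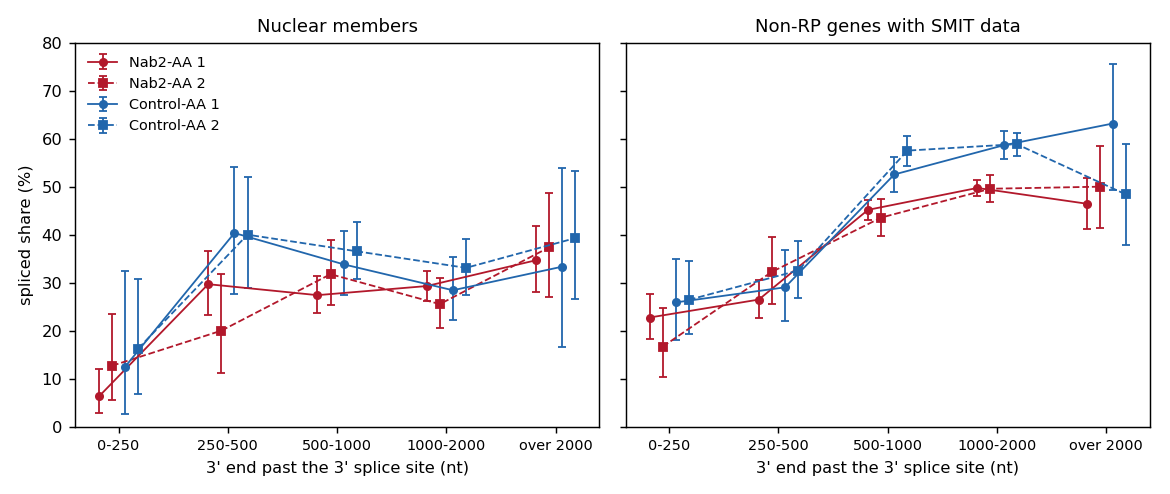
Spliced share of reads (%) by the distance of the read's 3' end past the 3' splice site (nt), for nuclear members and for non-RP genes with SMIT data, with 1 line per library and exact 95% binomial intervals. In the first bin the members' libraries lie between 6.3% and 16.3%, where the Control-AA libraries hold 24 and 43 reads.

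Among the functional lists, cytoskeleton genes held 11 members of the 16 listed, and 2 of these, PFY1 and DYN2, were called higher in alignments, where 5.95% of all genes were. Their introns were spliced in 162 of 446 and 51 of 152 reads in Nab2-AA, against 50 of 104 and 73 of 146 in Control-AA. Of 12 log2 odds ratios 9 were below 0, against 168 of 235 over all introns, with a median of -0.52 against -0.49. Meiosis genes held 5 members of the 14 listed, of which REC102 and DMC1 were called higher in alignments, where 5.95% of all genes were, and 0 lower. Of their Nab2-AA reads 109 of 112 and 55 of 56 were chimeric with NMA1 and PDA1. Transcription and chromatin genes held 4 (NCB2, GCR1, TFC3 and HPC2), and NCB2 was called higher in alignments. DYN2, REC102, DMC1 and NCB2 had 6, 12, 9 and 13 alignments in Control-AA, and became members through their Nab2-AA reads. The counts called per list therefore describe the chosen genes, and no enrichment of a function can be read from them. GCR1, the activator of glycolysis genes with the longest intron of the nuclear members (739 nt), was spliced in 2 of 29 and 0 of 10 reads in Nab2-AA, against 0 of 7 and 3 of 15 in Control-AA. None of these introns passed the test.

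RNA processing and export genes held 9 members and 0 called in any fit. Of their introns 7 of 10 had log2 odds ratios above 0, against 67 of 235 over all introns, with a median of 0.21 against -0.49. Some rest on few reads, as in POP8 with 1 of 13 spliced in Control-AA, and the list was not tested as a set. The introns of this list were spliced in 29.5% and 22.7% of reads in Nab2-AA, against 20.8% and 24.2% in Control-AA, and the groups overlapped. STO1, the large subunit of the nuclear cap-binding complex, had 21 of 42 and 2 of 14 spliced in Nab2-AA, against 6 of 17 and 11 of 29 in Control-AA. PSP2 had 26 of 69 and 4 of 20 in Nab2-AA, against 3 of 17 and 5 of 24 in Control-AA. Membrane traffic held 9 members (among them YIP3, KEI1 and the SNARE gene SFT1), lipid and glycan synthesis 6 (among them CPT1, EPT1 and SPT14) and signalling 4 (among them PHO85 and CNB1), with 0 called in any fit. The vacuolar pump list held VMA9 and VMA10, with 21 of 90 reads spliced in Nab2-AA, against 13 of 27 in Control-AA. APE2, RAD14, ERV1 and SRC1 were the single members of 4 more lists, with 0 called, and the nucleotide synthesis list held none.

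In genes with a pair of introns, single reads showed the state of both. In DYN2 34 reads of Nab2-AA had both removed in 5, the first alone in 8, the second alone in 1 and neither in 20, while all 5 reads of Control-AA kept both. Over both strains, 34 reads of EFM5, a methyltransferase gene for elongation factor eEF1A, had both removed in 11, the first alone in 4, the second alone in 0 and neither in 19. In TAD3, a subunit of the tRNA adenosine deaminase, 37 reads over both strains had both removed in 3, the first alone in 4, the second alone in 6 and neither in 24. In DYN2 3 reads, 2 of Nab2-AA and 1 of Control-AA, joined the first 5' splice site to the second 3' splice site with a 199-nt gap and so skipped the middle exon. In APE2 7 reads, 4 of Nab2-AA and 3 of Control-AA, used a 3' splice site inside the main intron, with a gap of 365 nt in place of 383 nt.

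HAC1 codes for the transcription factor of the unfolded protein response, and its intron is removed by the nuclease Ire1 and tRNA ligase in place of the spliceosome. A 250-nt gap (chromosome VI, 75842 to 76091) was found in 6 of 1016 informative reads, or 0.591% (exact 95% interval 0.217% to 1.28%). By library it was 0 of 441 and 2 of 158 in Nab2-AA, against 2 of 192 and 2 of 225 in Control-AA, and 0 of 441 allows up to 0.68%. The share of HAC1 reads that ended beyond the gene was 44.8% and 47.0% in Nab2-AA, against 45.1% and 47.5% in Control-AA, and an exact permutation test gave p = 0.667. HAC1 had 605 and 217 alignments in Nab2-AA, against 237 and 278 in Control-AA (log2 change -0.29, SE 0.12, edgeR adjusted p = 0.0894).

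Mitochondrial introns are self-splicing or removed by maturases. At 10 gaps in COX1 and COB, up to 2498 nt long, 192 of 195 informative observations were spliced. A read was counted at each gap it informed, so these are not separate reads: COX1 had 103 alignments and COB 28. The 2498-nt gap was seen in 3 reads of Control-AA replicate 2. It spans the COX1 coding start, so it is not shown to be an intron. An unspliced read had to align over 90% of the gap, while the median alignment spanned 1140 to 1221 nt, so this count favours spliced reads. The authors' deposited table lists COX1 at 0.167 and 0.5 in Nab2-AA and at 0 and 0.125 in Control-AA. For COB it lists 1 and 1 in Nab2-AA and 0.875 in Control-AA replicate 2, with no value in Control-AA replicate 1. From the gaps of COX1 and COB pooled the share was 98.6% and 98.3% in Nab2-AA, against 100% and 97.9% in Control-AA. This pooled share is not that of COX1 alone. The subtelomeric repeat members had 23.6% and 26.3% of reads spliced in Nab2-AA, against 23.1% and 20.6% in Control-AA, with 11 introns found in 9 of them, 5 of these 211 nt long. YJL225C, the repeat member with the most reads, had 27 of 98 and 10 of 34 reads with its first gap in Nab2-AA, against 9 of 25 and 9 of 28 in Control-AA. YIL177C had 18 of 70 and 5 of 16 in Nab2-AA, against 2 of 17 and 4 of 22 in Control-AA. In both genes this gap begins upstream of the coding start, so it is not shown to be the annotated intron. The authors' deposited table lists YJL225C at 0.0101 and 0 in Nab2-AA and 0 in both Control-AA libraries, and YIL177C at 0 in all 4. Shares of repeat members cannot be assigned to single copies. Repeat members had no chimeric reads, and between 0.606% and 3.23% of their reads ended beyond the gene.

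For 30 members no intron was assigned from gaps. Of these, 23 had reads of their own, and 7 lie inside COX1 or COB and were not searched separately. The authors' deposited table of fractions spliced gives values for these 30. In that table the 21 nuclear genes among them had a median of 0.0054 and 0 in the Nab2-AA libraries and 0 in both Control-AA libraries, and 8 were listed at 0 in all 4. REC102 was listed at 0.027 and 0 in Nab2-AA, against 0 and 0 in Control-AA. SRC1, an inner nuclear membrane protein gene, was listed at 0.0714 and 0 in Nab2-AA, against 0 and 0.333 in Control-AA. For the 62 nuclear members with an intron found, the medians in the authors' deposited table were 0.210 and 0.194 in Nab2-AA, against 0.236 and 0.25 in Control-AA. limma on the fractions of the authors' deposited table called 0 of 263 genes (0% in either direction), 0 of 100 members among them, and 4 members were higher and 3 lower at an unadjusted p under 0.05.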

How the data were processed

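Members and gene lists were chosen with earlier results of these data known. The deposited alignments are single long reads with genome coordinates (sacCer3, per the submitters' processing notes) and, from the values, a mapping quality score. The authors' deposited table holds, for each gene in each library, the fraction of reads spliced, and no depth. The deposited SMIT read counts served to exclude genes. Per the submitters' processing notes, minimap2 2.17, SAMtools 1.9 and bedtools 2.29.2 were among the tools, with no role given. How the deposited reads were selected is not given in the sources used here. Repeated rows were dropped.

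Alignments were counted on every table gene they overlapped by 50 nt on the same strand. The reference gene table supplied spans and names for 281 of 284 ids, and locus names gave the strands. Introns were gaps of 40 to 3000 nt with 3 or more matching reads. Spliced reads had a gap whose ends each lay within 10 nt of the intron's, and unspliced reads aligned over at least 90% of it. A read could be both chimeric and beyond the gene. Where splicing is given by read class, the reads ending within or beyond the gene exclude chimeric ones.

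Counts of at least 10 reads were tested with edgeR 4.0.16 (quasi-likelihood), as the interaction of strain with read class with 1 term per library, or as strain for alignments per gene after TMM scaling. Benjamini-Hochberg adjustment ran over the whole table. DESeq2 1.42.0, limma 3.58.1 (on the authors' fraction), a replicate block, other read definitions and leaving out each library were alternatives. Intervals are exact (Clopper-Pearson, 95%), and a count of 0 was given a limit of 3 counts. Scripts, tested on simulated data, ran in R 4.3.3 and Python 3.11.15.

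Genes were named by a rule: members that passed a fit, the 15 with the most alignments, those with a pair of introns, the 3 with the most alignments per list, the 5 highest and 5 lowest Control-AA spliced shares, and the 5 largest consistent differences per direction; exceptions are marked.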

Additional observations from a re-analysis of the deposited data

How the results depend on the processing

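In all, 334 alternative values were computed over 25 results, and 277 kept their direction and side of the threshold. For reads ending beyond the gene, members called higher numbered 1 with chimeric reads left out, 4 with a minimum of 20 reads (and 1 lower), 3 with a replicate block, 4 with crossed pairing, and 0 to 1 with a library left out. For alignments per gene, members called higher numbered 2 on reads ending within the gene, 11 without TMM, 0 by DESeq2, 4 with a replicate block, and 1 to 6 with a library left out; 1 was called lower with no minimum, and 0 to 1 with a library left out. Without TMM 23 genes were higher and 8 lower over the whole table, against 15 and 17 with it, and the median log2 change was 0.20 against 0.07. YCL012C reversed to -0.83 without chimeric reads and NCB2 to -0.085 on reads ending within the gene. The value for YCL012C rests on few reads and shows no direction. The pooled spliced share of all members, HAC1 included, differed by -0.91 percentage points and ranged from -2.91 to 1.10 with a library left out; it reversed to 0.32 without Nab2-AA replicate 1 and 1.10 without Control-AA replicate 2. Same-numbered libraries deviated with a correlation of 0.023 over 122 genes in alignments and -0.21 over 92 introns in splicing, so the numbers share no shown pairing. Over the whole table, splicing calls lower in Nab2-AA numbered 13, against 1 without read names on both strands, 8 by DESeq2, 0 with a replicate block, 5 with crossed pairing and 1 to 8 with a library left out, and 0 were members each time. Calls higher for reads ending beyond the gene numbered 38, against 14 at 500 nt, 16 without read names on both strands, 60 with a minimum of 20 reads, 57 with crossed pairing and 0 to 23 with a library left out. Crossed pairing was added after the data were seen, as were leaving out chimeric reads or low mapping quality and the nuclear members alone. Depth is 1 limit: 39 of the 97 members had under 50 alignments. Except where a value above shows it, the cause of these shifts was not tested.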
